A study of Saccharomyces cerevisiae with 17 samples.

Results

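The 37 genes described here encode enzymes that make histidine, the branched-chain amino acids, lysine, tryptophan and the other aromatic amino acids, threonine, asparagine and serine in budding yeast. They were chosen by name as a fixed list of HIS, ILV, LEU, BAT, LYS, TRP, ARO, HOM, THR, ASN and SER genes, without arginine and methionine synthesis, out of 6692 genes in the count table. LEU2 was left out because it is supplied on a plasmid. The list does not hold every gene with these names. HIS2, HIS6, LEU4, BAT2, LYS5, TRP1, ARO7, ARO8 and HOM6 are outside it and belong to a separate list of other pathway genes. Both lists were chosen with earlier results of these data known. All 37 passed the filter on low counts, as did 6162 genes in all.

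Poly(A) RNA was sequenced from strains that lack a gene of the nonsense-mediated decay pathway, which removes mRNAs on which ribosomes terminate prematurely. UPF1 (NAM7 in the table) encodes the RNA helicase the pathway depends on, and the products of NMD4 and EBS1 associate with it. The groups were upf1Δ (upf1delta::KlURA3, 3 libraries), nmd4Δ (nmd4delta::KlURA3, 6 libraries), ebs1Δ (ebs1delta::KlURA3, 3 libraries) and wild type (5 libraries). Every strain was BY4741, a haploid MATa laboratory strain, carried the LEU2 plasmid pRS415 and was grown in SD-LEU, a synthetic medium without leucine. The KlURA3 marker is present in the 3 deletion strains and no library with the marker alone was analysed here, so effects of the marker and of a deletion common to all 3 cannot be told apart. The labels call the libraries biological replicates and do not say how many clones of a genotype they came from, so p-values reflect only how these libraries vary.

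Amino acid synthesis in yeast is controlled as a whole by Gcn4, a transcription factor that binds the sequence TGACTC upstream of its target genes and is made when amino acids run short. Single pathways have their own controls on top of this, such as Leu3 for leucine and branched-chain genes, Lys14 for lysine genes and Bas1 with Pho2 for some histidine genes. BY4741 carries an incomplete HIS3 and cannot make its own histidine, so the medium supplies it.

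The libraries held 19.75 to 29.67 M counted reads in batch 1 and 40.37 to 59.48 M in batch 2, which holds nmd4Δ replicates 4 to 6 and wild type replicates 3 to 5. Batch 2 libraries were matched to batch 1 libraries of the same genotype by scoring each whole matching. The best matching paired nmd4Δ 4, 5 and 6 with 1, 2 and 3, and wild type 3 and 4 with 1 and 2. The score was the SD of the log2 difference over genes, after each gene's mean shift between batches was removed. In nmd4Δ it was 0.0533 for this matching, against 0.108 to 0.156 for the other matchings. In wild type it was 0.054, against 0.0836 to 0.199. The 0.0836 came with wild type replicate 5 in place of 4 as the partner of replicate 2, so that choice is less certain. The labels do not say whether matched libraries share a culture. They were averaged, so each mean and SD below runs over n = 3 sets per genotype. The edgeR SE and p-values take all 17 libraries as separate although matched ones were correlated (0.7185), so they may be too small. A limma voom fit with the sets as a block called 6 members higher and 16 lower in upf1Δ, 0 and 3 in nmd4Δ, and 1 and 3 in ebs1Δ. The shares of all tested genes called in that fit were not counted. The deleted genes had 5 to 59 reads (NAM7 in upf1Δ), 17 to 61 (NMD4 in nmd4Δ) and 0 to 1 (EBS1 in ebs1Δ), against at least 805 reads in each wild type library. The 4 MATa marker genes summed to 1150 to 1390 CPM (reads of a gene scaled to the TMM library size) in upf1Δ, 1580 to 1910 in nmd4Δ and 1590 to 1870 in ebs1Δ, against 1910 to 2040 in wild type. The 3 MATalpha genes summed to 185 to 192, 50.4 to 55.6 and 60.6 to 62.4 CPM in the same deletions, against 43.5 to 46.6 in wild type, and the alpha pheromone gene MF(ALPHA)1 averaged 1.12 CPM in upf1Δ and 0.627 CPM in wild type. The part of these differences in the results below was not tested.

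The DNA upstream of 6 genes that carry the results is shown first, because most of it holds the Gcn4 sequence. Each run is the 300 bases from 400 to 101 bases before the start codon, read 5′ to 3′ on the strand of the gene in the R64 (sacCer3) genome from RefSeq. Capitals mark TGACTC or its reverse complement GAGTCA and, in LEU1, also the site that Leu3 binds (CCGG, 2 bases of any kind and CCGG again). HIS4, HIS7, LEU1 and SER33 had lower mRNA in upf1Δ, and HIS5 and SER3 had higher mRNA. The windows are chrIII:68434-68733 (minus strand) for HIS4, chrII:716566-716865 (minus) for HIS7, chrVII:478753-479052 (minus) for LEU1, chrIX:222591-222890 (minus) for SER33, chrIX:142528-142827 (plus) for HIS5 and chrV:322286-322585 (plus) for SER3. Since the upstream neighbour of HIS4 lies 265 bases away, its window reaches into that gene.
HIS4: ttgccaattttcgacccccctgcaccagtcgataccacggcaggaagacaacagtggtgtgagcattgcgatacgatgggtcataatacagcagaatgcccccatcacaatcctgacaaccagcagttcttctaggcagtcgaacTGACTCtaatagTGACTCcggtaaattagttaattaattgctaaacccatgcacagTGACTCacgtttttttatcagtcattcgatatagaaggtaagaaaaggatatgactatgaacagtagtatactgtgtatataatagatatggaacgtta
HIS7: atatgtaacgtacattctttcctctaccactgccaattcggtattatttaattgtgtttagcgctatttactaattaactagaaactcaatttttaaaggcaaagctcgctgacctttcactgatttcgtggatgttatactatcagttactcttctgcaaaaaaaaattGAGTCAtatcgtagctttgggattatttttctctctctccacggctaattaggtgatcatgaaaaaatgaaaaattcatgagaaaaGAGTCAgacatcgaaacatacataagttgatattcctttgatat
LEU1: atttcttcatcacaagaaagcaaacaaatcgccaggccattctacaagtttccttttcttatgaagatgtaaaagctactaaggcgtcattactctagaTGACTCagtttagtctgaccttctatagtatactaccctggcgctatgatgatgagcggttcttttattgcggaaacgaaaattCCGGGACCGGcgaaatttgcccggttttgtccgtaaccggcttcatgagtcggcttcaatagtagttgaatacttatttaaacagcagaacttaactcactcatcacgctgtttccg
SER33: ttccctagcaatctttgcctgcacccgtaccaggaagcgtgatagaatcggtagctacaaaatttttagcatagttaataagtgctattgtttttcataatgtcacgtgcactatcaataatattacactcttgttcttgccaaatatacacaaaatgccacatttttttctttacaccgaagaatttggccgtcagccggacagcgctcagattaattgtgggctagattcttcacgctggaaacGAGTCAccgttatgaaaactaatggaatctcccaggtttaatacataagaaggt
HIS5: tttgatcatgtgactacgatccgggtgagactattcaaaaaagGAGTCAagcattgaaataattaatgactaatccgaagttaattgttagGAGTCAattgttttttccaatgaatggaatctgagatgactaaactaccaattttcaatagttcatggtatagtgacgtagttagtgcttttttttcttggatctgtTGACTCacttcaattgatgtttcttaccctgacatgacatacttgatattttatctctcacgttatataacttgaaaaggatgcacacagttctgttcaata
SER3: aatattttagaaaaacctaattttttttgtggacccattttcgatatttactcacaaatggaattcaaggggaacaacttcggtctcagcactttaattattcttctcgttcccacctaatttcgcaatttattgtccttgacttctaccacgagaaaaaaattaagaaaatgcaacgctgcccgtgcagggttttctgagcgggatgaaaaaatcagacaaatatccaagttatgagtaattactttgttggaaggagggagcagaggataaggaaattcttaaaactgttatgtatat

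TGACTC on either strand was found in the windows of 27 of the 37 genes (73%), against 508 of 6020 protein-coding genes (8.44%). The list was made up mostly of Gcn4 targets, so an excess over all genes follows largely from that choice. It occurred at least 2 times in 6 of the 37 (16.2%), among them HIS4, HIS5 and HIS7, against 0.797% of all protein-coding genes. Of the 17 genes that fell in upf1Δ 14 held it, of the 6 that rose 2 did (HIS5 and LEU9), and of the 14 that were not called 11 did. The Leu3 site was found upstream of ILV5, LEU1 and BAT1 (8.11%), against 10 of all protein-coding genes (0.166%). A match describes letters in this window only, and SER3, which has no TGACTC there, differs from its paralog SER33, which has 1.

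The 37 mRNAs were among the more abundant. By mean log2 CPM over all 17 libraries, their median level lay at the 92.5th percentile of tested genes and the lowest at the 67.7th. In wild type, per kilobase of gene, ILV5, which encodes the acetohydroxyacid reductoisomerase of branched-chain synthesis, led with 2750 CPM per kb. HOM2 (962 CPM per kb, aspartic semialdehyde dehydrogenase), LEU1 (834, isopropylmalate isomerase) and BAT1 (807, the mitochondrial branched-chain aminotransferase) followed, and LYS2 (63.4, aminoadipate reductase) and SER3 (54.9) were lowest. Summed over the list, upf1Δ had 18518 ± 1360 CPM, nmd4Δ 20571 ± 362 CPM and ebs1Δ 19594 ± 234 CPM, against 20315 ± 869 CPM in wild type (SD, n = 3 each). As a share of all counted reads, with no scaling, the list took 1.9 to 2.13% of each upf1Δ library, 1.98 to 2% in nmd4Δ and 2 to 2.04% in ebs1Δ, against 1.93 to 2.05% in wild type, and the ranges of upf1Δ and wild type overlapped.

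Without Upf1, 6 of the 37 mRNAs rose and 17 fell, most of them by little. The serine gene SER3 rose 2.57-fold and the histidine gene HIS5 rose 1.63-fold, and no other member was changed by 1.5-fold or more. The largest falls were in HIS1, HIS4, LEU1, SER33, HIS7 and ILV2, with log2 fold changes of -0.57 to -0.34. A gene was called where edgeR's quasi-likelihood test with Benjamini-Hochberg adjustment over 6162 genes gave an adjusted p under 0.05. By that rule 36.4% of all tested genes were higher in upf1Δ and 35.1% were lower, so the 16.2% of members that rose were fewer than in the background and the 45.9% that fell were more. The members' median log2 fold change was -0.126 and that of all tested genes was -0.02. In 5 of the 37 members every upf1Δ library lay above every wild type library and in 13 of 37 every one lay below, against 35.4% and 31.4% of all tested genes. By this measure the share of members below wild type was close to that of all tested genes.

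The count of falls depended on scaling. With libraries scaled by their total counts in place of TMM, a choice added after the data were seen, 10 members rose and 6 fell, and the median moved to 0.032 for members and to 0.139 for all genes. For this and the other alternatives, here and below, the shares of all tested genes called were not counted. Counts of members under them cannot be set against the shares of the main fit. Under all 25 alternatives tried, 5 rises (SER3, HIS5, LEU9, LYS9 and THR1) and 6 falls (HIS1, HIS4, HIS7, LEU1, SER33 and ILV2) stayed called.

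**Figure D1:**
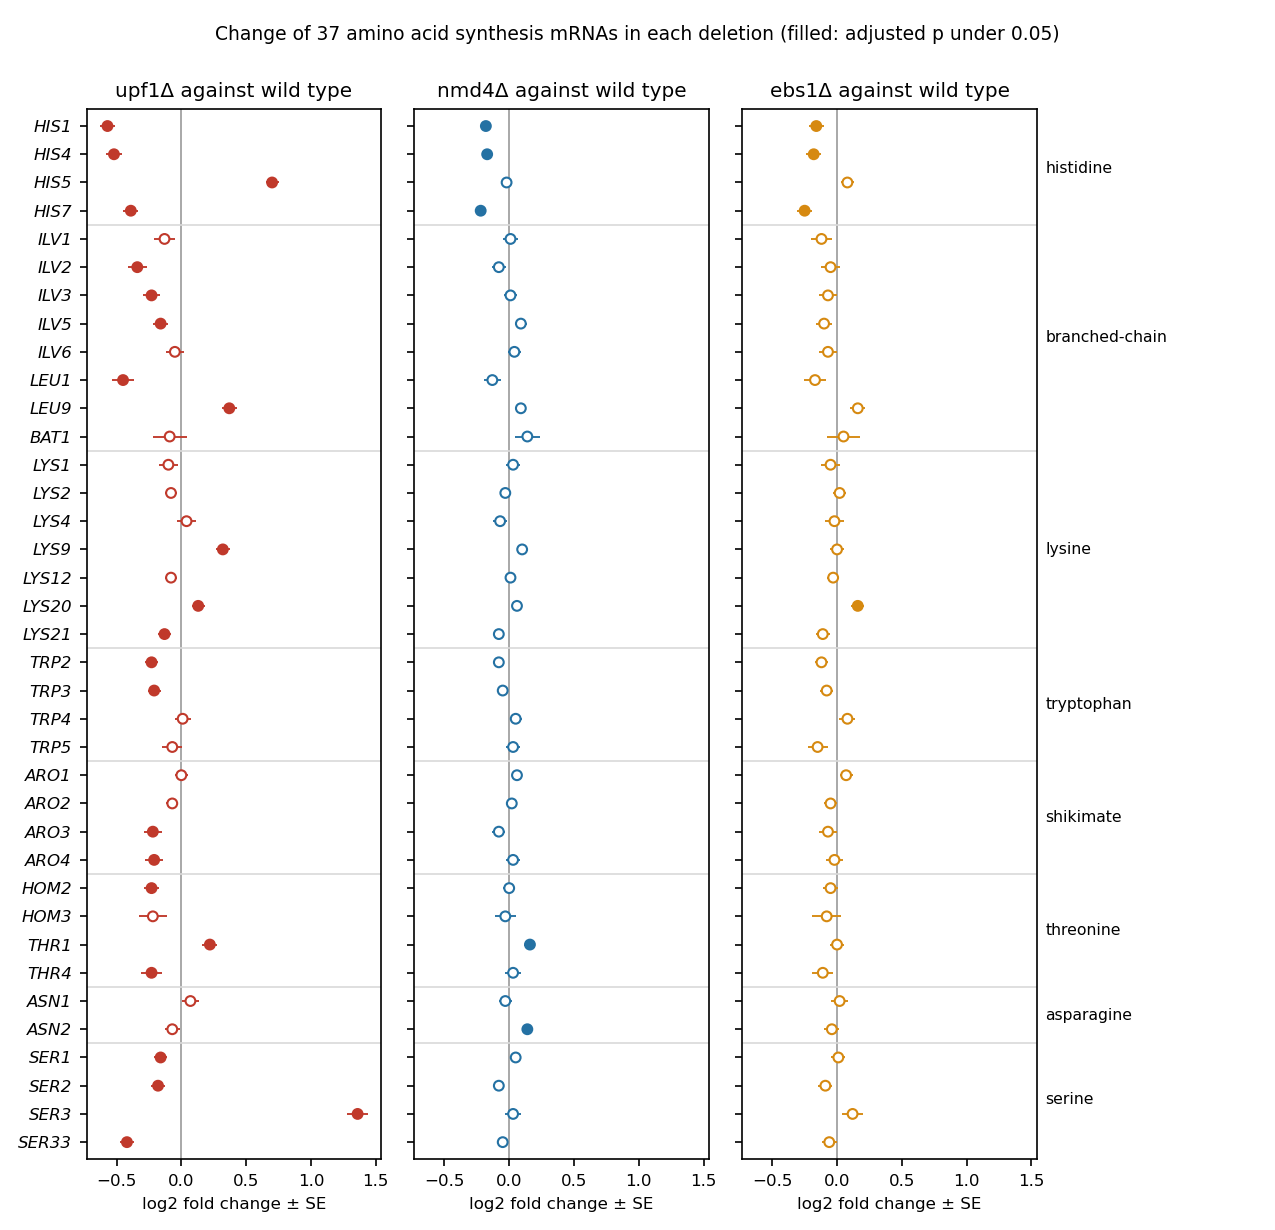
Log2 fold change of each of the 37 mRNAs against wild type, grouped by pathway, in upf1Δ, nmd4Δ and ebs1Δ. Points are edgeR estimates with their SE, filled where the adjusted p is under 0.05. SER3 at 1.36 and HIS5 at 0.70 in upf1Δ stand right of the rest, and HIS1, HIS4 and HIS7 lie left of 0 in all 3 deletions.

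Serine synthesis held the largest rise and a fall in its paralog. SER3 and SER33 (YER081W, chrV:322686-324095, and YIL074C, chrIX:221081-222490) encode alternative 3-phosphoglycerate dehydrogenases, the first step from glycolysis to serine. SER3 had 197, 181 and 213 CPM in upf1Δ, against 72.4, 78.4, 69.1, 71.7 and 86.3 CPM in wild type. All 3 upf1Δ libraries lay far above every other library. The log2 fold change was 1.36 ± 0.078 (SE, edgeR adjusted p = 1.05e-11). In nmd4Δ the lowest, median and highest levels of SER3 were 72.5, 76.9 and 84.2 CPM, and ebs1Δ had 86.6, 78.1 and 85.2 CPM. Both overlapped wild type, and SER3 was not called in nmd4Δ (0.03 ± 0.059) or ebs1Δ (0.12 ± 0.080).

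SER33 had 96.5, 89.0 and 82.8 CPM in upf1Δ, against 121, 116, 124, 118 and 123 CPM in wild type. Every upf1Δ library was below every wild type library, and the log2 fold change was -0.42 ± 0.057 (edgeR adjusted p = 2.7e-06). SER33 spanned 112 to 122 CPM in nmd4Δ and had 118, 116 and 109 CPM in ebs1Δ, and neither deletion was called. The ratio of SER3 to SER33 within a library, which no scaling between libraries alters, was 2.04 to 2.58 in upf1Δ, 0.629 to 0.700 in nmd4Δ and 0.672 to 0.784 in ebs1Δ, against 0.557 to 0.704 in wild type. The genes are equally long (1410 bases), so SER3 was the more abundant of the pair in upf1Δ and SER33 in the other genotypes. Of 50-base words in each gene only 0.808% occur elsewhere in the genome.

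SRG1 (chrV:322212-322762), a noncoding RNA known to repress SER3 when transcribed across its promoter, covers the SER3 window shown above and overlaps the first 77 bases of SER3 on the same strand. SRG1 has no row in the count table, so its level was not analysed here, and reads of SRG1 and SER3 in the overlap cannot be told apart. The downstream enzyme genes were called lower in upf1Δ. SER1, which encodes the phosphoserine aminotransferase, had a log2 fold change of -0.16 ± 0.053 and SER2, the phosphoserine phosphatase gene, -0.18 ± 0.054. Both lost their calls with batch 1 libraries alone (edgeR adjusted p = 0.0584 and 0.0547) and with scaling by total count (-0.01 and -0.02).

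**Figure D2:**
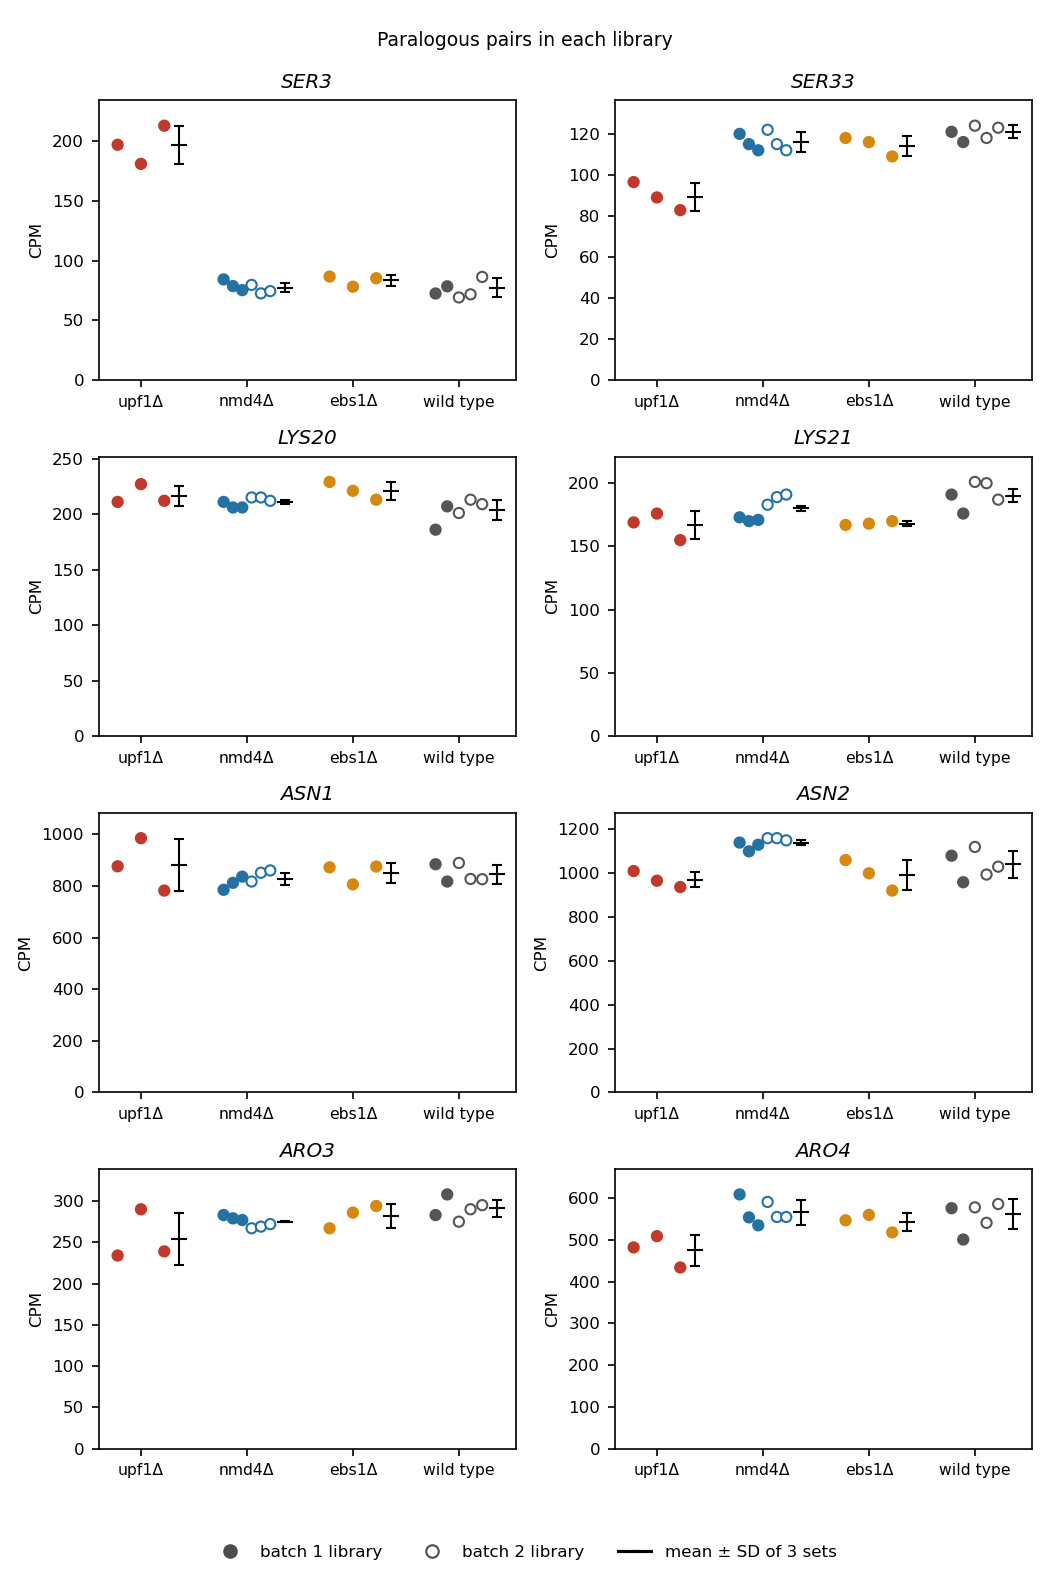
CPM of the 4 paralogous pairs in every library, with the mean ± SD of 3 sets beside the points, filled for batch 1 and open for batch 2. SER3 in upf1Δ sits between 181 and 213 CPM, above all other libraries, while SER33 in upf1Δ sits between 82.8 and 96.5 CPM, below them.

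All 4 histidine genes of the list were called in upf1Δ, HIS5 in the opposite direction to the other 3. Calls were common among all tested genes, with 36.4% higher and 35.1% lower in upf1Δ. HIS1 encodes the first enzyme of the pathway (ATP phosphoribosyltransferase), HIS4 an enzyme with several activities, HIS7 the imidazole glycerol phosphate synthase and HIS5 the histidinol-phosphate aminotransferase. HIS5 (YIL116W, chrIX:142928-144085) had 233, 240 and 228 CPM in upf1Δ, against 147, 142, 142, 131 and 147 CPM in wild type. The groups did not overlap, and the log2 fold change was 0.70 ± 0.050 (edgeR adjusted p = 3.07e-10). It spanned 133 to 143 CPM in nmd4Δ and had 150, 156 and 150 CPM in ebs1Δ, and was called in neither (-0.02 ± 0.037 and 0.08 ± 0.050).

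The library values of HIS1, HIS4, HIS7 and LEU1 are given because of their size of change, after the values were seen. HIS1 had 336, 377 and 331 CPM in upf1Δ, against 506, 519, 486, 497 and 525 CPM in wild type. In nmd4Δ HIS1 ran from 429 through a median of 447 to 479 CPM, and ebs1Δ had 436, 474 and 473 CPM. Both lay below every wild type library and above every upf1Δ library. HIS4 had 332, 358 and 316 CPM in upf1Δ, 426 to 438 CPM in nmd4Δ and 400, 444 and 432 CPM in ebs1Δ, against 468, 474, 493, 477 and 538 CPM in wild type. HIS7 had 132, 140 and 123 CPM in upf1Δ, 140 to 153 CPM in nmd4Δ and 137, 149 and 152 CPM in ebs1Δ, against 167, 177, 171, 176 and 175 CPM in wild type. HIS4 and HIS7 were below wild type in every library of all 3 deletions.

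In upf1Δ the log2 fold changes were -0.57 ± 0.058 for HIS1, -0.52 ± 0.059 for HIS4 and -0.39 ± 0.057 for HIS7. The ratio of HIS5 to HIS1 within a library was 0.637 to 0.692 in upf1Δ, 0.297 to 0.324 in nmd4Δ and 0.317 to 0.345 in ebs1Δ, against 0.263 to 0.291 in wild type. HIS3, incomplete in this strain and not a member of the list, also rose in upf1Δ (0.42 ± 0.061).

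**Figure D3:**
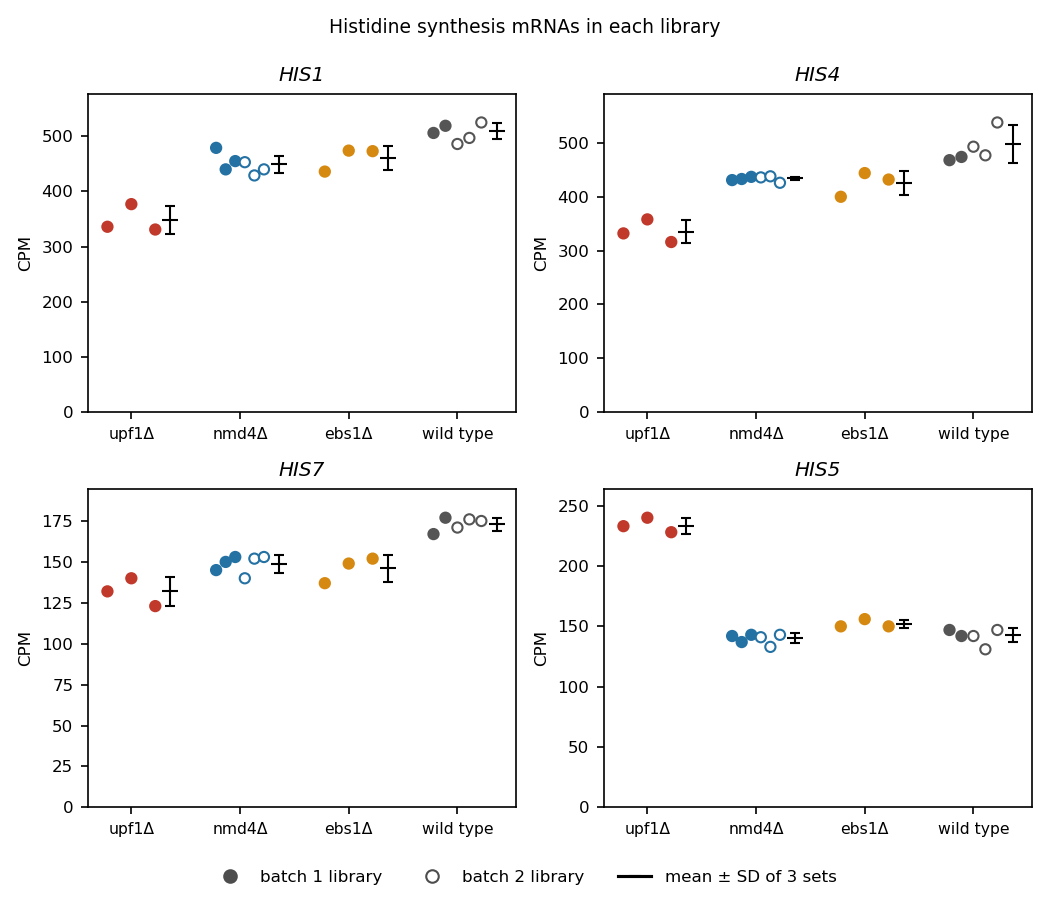
CPM of HIS1, HIS4, HIS7 and HIS5 in every library, with the mean ± SD of 3 sets beside the points, filled for batch 1 and open for batch 2. HIS1 in upf1Δ lies between 331 and 377 CPM and in wild type between 486 and 525 CPM, with nmd4Δ and ebs1Δ between them, and HIS5 is high in upf1Δ alone.

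In the branched-chain pathway 4 of the 8 listed genes fell in upf1Δ and 1 rose (50% and 12.5%, against 35.1% and 36.4% of all tested genes). LEU1 (YGL009C) had 1330, 1670 and 1180 CPM in upf1Δ, against 1950, 1840, 2030, 1960 and 1960 CPM in wild type. Every upf1Δ library was below every wild type library, but the upf1Δ libraries spread widely. The log2 fold change of LEU1 was -0.45 ± 0.087 (edgeR adjusted p = 0.000141). ILV2, the catalytic subunit gene of acetolactate synthase, fell by 0.34, ILV3 (dihydroxyacid dehydratase) by 0.23 and ILV5 by 0.16 on the log2 scale. For ILV3 and ILV5 the upf1Δ libraries overlapped wild type. The ILV5 call was lost in 6 of 25 alternatives and that of ILV3 in 1. LEU9, which encodes a second isopropylmalate synthase, averaged 357 ± 19.4 CPM in upf1Δ and 270 ± 6.17 CPM in wild type (log2 fold change 0.37 ± 0.058). LEU2, the plasmid gene for the next enzyme after LEU1, averaged 3630 ± 1120 CPM in upf1Δ and 5010 ± 540 CPM in wild type. ILV1 (threonine deaminase, -0.13), ILV6 (the acetolactate synthase regulatory subunit, -0.05) and BAT1 (-0.09) were not called.

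Of the 7 lysine genes of the list 2 rose and 1 fell in upf1Δ (28.6% and 14.3%, against 36.4% and 35.1% of all tested genes). LYS9, the saccharopine dehydrogenase gene that makes saccharopine, averaged 238 ± 11.7 CPM in upf1Δ and 189 ± 8.87 CPM in wild type (log2 fold change 0.32 ± 0.055). The homocitrate synthase paralogs LYS20 and LYS21, which carry out the first step, were called in opposite directions in upf1Δ, but neither call was stable. LYS20 lost its call in 12 of 25 alternatives and LYS21 lost its own in 7, among them the matched block (limma adjusted p = 0.084), and changed sign in 1. LYS20 had 211, 227 and 212 CPM in upf1Δ, against 186, 207, 201, 213 and 209 CPM in wild type, with overlap (0.13 ± 0.051, edgeR adjusted p = 0.0339). LYS21 had 169, 176 and 155 CPM in upf1Δ, against 191, 176, 201, 200 and 187 CPM in wild type, with overlap at 176 (-0.13 ± 0.052, edgeR adjusted p = 0.0381, and 0.03 with scaling by total count). Of their 50-base words 37.8% (LYS20) and 36.7% (LYS21) occur elsewhere in the genome, so reads could be split between them and both counts are uncertain. LYS1, LYS2, LYS4 and LYS12 were not called, with changes of -0.10 to 0.04.

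TRP2, the anthranilate synthase gene, fell by 0.23 and TRP3, its partner subunit gene, by 0.21 in upf1Δ, and TRP4 (0.01) and TRP5 (-0.07) were not called. ARO3 and ARO4 encode the DAHP synthases that open the shikimate pathway. ARO3 had 234, 290 and 239 CPM in upf1Δ, against 283, 308, 275, 290 and 295 CPM in wild type. ARO4 had 482, 509 and 434 CPM in upf1Δ, against 576, 501, 578, 541 and 586 CPM in wild type. In both genes upf1Δ replicate 2 overlapped wild type and the other replicates lay below it, and both were called lower (-0.22 ± 0.068 and -0.21 ± 0.069). ARO1 (0.00) and ARO2 (-0.07), which encode later shikimate enzymes, were not called.

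Of the threonine genes HOM2 fell by 0.23 and THR4 (threonine synthase) by 0.23 in upf1Δ, and THR1 (homoserine kinase) rose by 0.22 ± 0.057. THR1 averaged 497 ± 20.5 CPM in upf1Δ and 439 ± 20.6 CPM in wild type. HOM3, which encodes the aspartate kinase that starts the pathway, was not called (-0.22 ± 0.11, edgeR adjusted p = 0.0698). The asparagine synthetase genes were not called either. ASN1 had 876, 985 and 782 CPM in upf1Δ, against 884, 817, 889, 827 and 826 CPM in wild type, and ASN2 had 1010, 966 and 937 CPM in upf1Δ, against 1080, 959, 1120, 994 and 1030 CPM in wild type. Both pairs of groups overlapped.

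Within upf1Δ the 3 libraries differed in level across the whole list. Replicate 2 was the highest of the 3 for 29 of 37 members and replicate 3 the lowest for 32, and their summed levels were 19778 and 17069 CPM, with 18706 CPM in replicate 1. Such differences were not confined to upf1Δ. In batch 1 wild type replicate 1 lay above replicate 2 for 29 of 37 members (21251 and 19513 CPM). There nmd4Δ replicate 1 was the highest of 3 for 24 members, while ebs1Δ replicate 1 was so for only 15. Without upf1Δ replicate 3, 5 members rose and 14 fell, and without replicate 2, 5 rose and 21 fell.

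**Figure D4:**
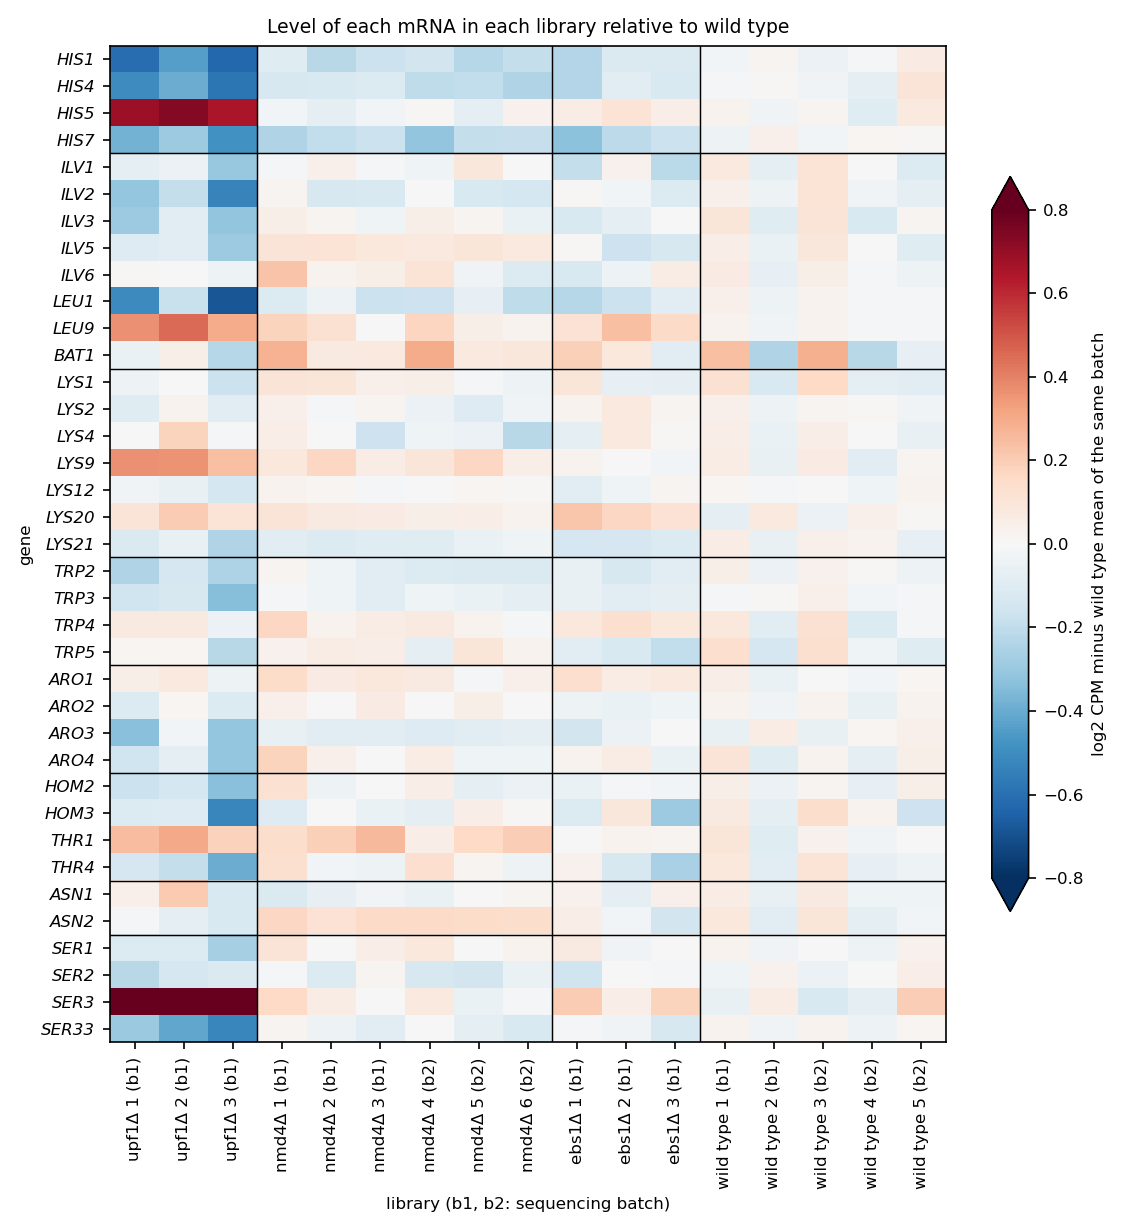
Log2 CPM of each member in each library relative to the wild type mean of the same batch, with members in rows and libraries in columns. Colours are held at the ends of the scale, which SER3 in upf1Δ exceeds. The 3 upf1Δ columns differ from one another in level, replicate 3 being lowest for 32 of 37 members, and the SER3 and HIS5 rows are high in upf1Δ alone. The wild type columns of a batch also differ in level.

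Over all tested genes the change in upf1Δ became lower as mean expression rose (Spearman correlation -0.54 over 6162 genes, which share libraries), and the members lie at the high end of expression. The same correlation was -0.26 in nmd4Δ and -0.42 in ebs1Δ. The part of this trend in the members' falls was not tested.

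**Figure D5:**
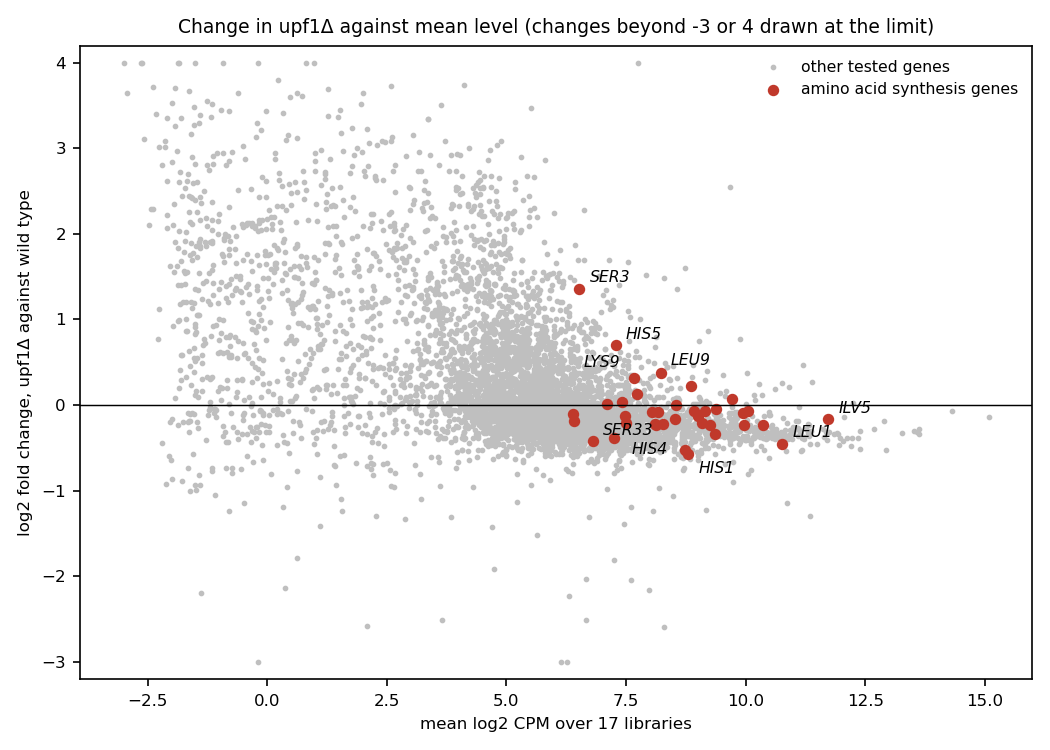
Log2 fold change in upf1Δ against mean log2 CPM over 17 libraries for all tested genes (grey) and the 37 members (red). Most members lie to the right, where most genes are slightly below 0, and SER3 and HIS5 lie above this band.

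Without Nmd4 few members changed. THR1 and ASN2 rose and HIS1, HIS4 and HIS7 fell, 2 and 3 of 37 (5.41% and 8.11%), against 13.6% of all tested genes higher and 14.4% lower. In 1 member every nmd4Δ library lay above every wild type library and in 3 every one lay below, against 7.94% and 10% of all tested genes. The median log2 fold change was 0.007 for members and -0.001 for all genes. HIS7 had a log2 fold change of -0.22 ± 0.042 (edgeR adjusted p = 0.00135), HIS1 -0.18 ± 0.042 (0.00541) and HIS4 -0.17 ± 0.043 (0.00719). THR1 averaged 487 ± 21.8 CPM in nmd4Δ and 439 ± 20.6 CPM in wild type (0.16 ± 0.042). ASN2 had a lowest, median and highest level of 1100, 1150 and 1160 CPM in nmd4Δ, against 1080, 959, 1120, 994 and 1030 CPM in wild type (0.14 ± 0.043, edgeR adjusted p = 0.0201). ASN2 overlapped wild type replicate 3, and ASN1, with 785 to 860 CPM in nmd4Δ, was not called. With matched libraries treated as a block in limma voom 0 members were higher and 3 lower (3 and 3 at an unadjusted p under 0.05). In edgeR's test of the nmd4Δ effect between batches 0 of 6162 genes were called, with 0 of 37 members and 63 of all genes at an unadjusted p under 0.05. Since most batch 2 libraries match a batch 1 library, the batches are not independent and this is no test of replication.

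Without Ebs1 the same 3 histidine genes fell and LYS20 rose, 3 and 1 of 37 (8.11% and 2.7%), against 7.38% of all tested genes lower and 14% higher. In 3 members every ebs1Δ library lay above every wild type library and in 8 every one lay below, against 17.2% and 11.9% of all tested genes. The median was -0.05 for members and -0.006 for all genes. HIS7 had a log2 fold change of -0.25 ± 0.057 (edgeR adjusted p = 0.00445), HIS4 -0.18 ± 0.058 (0.0342) and HIS1 -0.16 ± 0.057 (0.04996). LYS20 had 229, 221 and 213 CPM in ebs1Δ and overlapped wild type at 213 (0.16 ± 0.051, edgeR adjusted p = 0.0352). LYS21 had 167, 168 and 170 CPM in ebs1Δ, below every wild type library, and was not called (-0.11 ± 0.052). The HIS1 call was lost in 20 of 25 alternatives, that of HIS4 in 8, that of LYS20 in 7 and that of HIS7 in 2. Leaving out 1 library gave 0 to 2 higher and 1 to 4 lower. With scaling by total count 5 members rose and 0 fell (1 lower at an unadjusted p under 0.05 in edgeR). HIS1, HIS4 and HIS7 were the members lower in all 3 deletions, and these comparisons share their wild type libraries. The share of all tested genes lower in all 3 was not counted, so this overlap has no background to be read against.

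Set against the other deletions directly, upf1Δ had 4 members higher and 15 lower than nmd4Δ (36% and 30.9% of all tested genes), and 5 higher and 11 lower than ebs1Δ (33.8% and 27.4%). All upf1Δ libraries lay above all nmd4Δ libraries for 4 members and below them for 17 (35% and 28.1% of all tested genes), and above all ebs1Δ libraries for 5 and below them for 10 (34.1% and 23.7%). With scaling by total count the calls became 12 higher and 3 lower than nmd4Δ, and 5 higher and 5 lower than ebs1Δ. SER3 was higher in upf1Δ by 1.33 ± 0.073 against nmd4Δ and by 1.24 ± 0.079 against ebs1Δ, and HIS5 by 0.72 ± 0.047 and 0.62 ± 0.051. HIS1 was lower by 0.39 and 0.40 on the log2 scale, HIS4 by 0.35 and 0.34, and HIS7 by 0.17 and 0.15. For HIS1 and HIS4 these calls held under all alternatives and the groups did not overlap. For HIS7 the groups met or overlapped, and with scaling by total count its differences were -0.01 (edgeR adjusted p = 0.851) and -0.08 (0.299) and were not called. Between nmd4Δ and ebs1Δ, 3 members were higher in nmd4Δ (ILV5 by 0.19, ASN2 by 0.18 and THR1 by 0.17) and 0 were lower in edgeR (1 at an unadjusted p under 0.05, and 0 in DESeq2), against 10% and 16% of all tested genes. All nmd4Δ libraries lay above all ebs1Δ libraries for 5 members and below them for 1 (10.4% and 15.8% of all tested genes). With scaling by total count the split was 0 higher and 4 lower (0 higher at an unadjusted p under 0.05).

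Other enzymes of the same pathways, 15 genes outside the list, changed both ways in upf1Δ, 5 higher and 7 lower (33.3% and 46.7%, against 36.4% and 35.1% of all tested genes). LYS5, which encodes the activator of the aminoadipate reductase Lys2, averaged 44.8 ± 0.76 CPM in upf1Δ and 21.3 ± 0.119 CPM in wild type (log2 fold change 0.97 ± 0.052). BAT2, the cytosolic branched-chain aminotransferase gene, rose by 0.51, TRP1 by 0.49, and the glycine synthesis genes GLY1 and AGX1 by 0.47 each. HOM6 (homoserine dehydrogenase) fell by 0.42, ARO7 (chorismate mutase) by 0.33, ARO8 by 0.29 and TYR1 by 0.27, and HIS6 and HIS2 fell by 0.17 and 0.11. SHM1 was called lower (-0.14) in the fit with a batch term, with 278, 291 and 273 CPM in upf1Δ, against 316 and 301 CPM in the wild type libraries of batch 1 and 266, 250 and 244 CPM in those of batch 2. In nmd4Δ 4 rose and 1 fell (26.7% and 6.67%, against 13.6% and 14.4%), and in ebs1Δ 2 rose and 1 fell (13.3% and 6.67%, against 14% and 7.38%). LYS5 (0.42) and BAT2 (0.18) were the 2 that rose in ebs1Δ, and the histidine gene HIS2 (-0.16) was the 1 that fell.

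Of 10 regulators 4 rose and 2 fell in upf1Δ (40% and 20%, against 36.4% and 35.1% of all tested genes). GCN4 mRNA averaged 1280 ± 99.8 CPM in upf1Δ and 938 ± 12.6 CPM in wild type (log2 fold change 0.37 ± 0.070, edgeR adjusted p = 0.000122). ARO80, an activator of aromatic amino acid breakdown genes, rose by 0.60, LYS14 by 0.56 and LEU3 by 0.33. GCN20, whose product acts with Gcn1 to activate the kinase Gcn2, fell by 0.50 and MKS1 by 0.25. In nmd4Δ 4 (40%) fell and 0 rose in edgeR (0 higher at an unadjusted p under 0.05), against 14.4% and 13.6% of all tested genes. The falls were BAS1 at -0.47, LEU3 at -0.13, GCN20 at -0.12 and MKS1 at -0.10. BAS1 had 43.3 to 48.7 CPM in nmd4Δ and 53.5 to 67.1 CPM in wild type, but varied from 43.3 to 71.4 CPM within upf1Δ. In ebs1Δ ARO80 alone (10%) rose, by 0.22, and 0 fell (0 lower at an unadjusted p under 0.05), against 14% and 7.38% of all tested genes. GCN4 translation depends on reading frames in its leader, and its mRNA level is not a measure of Gcn4 protein.

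A further list held 7 genes that break down the same amino acids or glycine. Of these 5 rose and 0 fell in edgeR in upf1Δ (0 lower at an unadjusted p under 0.05), 4 rose in nmd4Δ and 1 in ebs1Δ. These are 71.4%, 57.1% and 14.3% of the list, against 36.4%, 13.6% and 14% of all tested genes. The glycine cleavage genes GCV1, GCV2 and GCV3 rose by 0.53, 0.29 and 0.26 in upf1Δ and by 0.32, 0.36 and 0.17 in nmd4Δ. They are counted in these shares although glycine is not among the amino acids that the members make. BAT2, also counted among the synthesis enzymes above, rose in all 3 deletions, by 0.51 in upf1Δ, 0.20 in nmd4Δ and 0.18 in ebs1Δ.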

How the data were processed

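Libraries were made with a directional kit from poly(A) RNA after hot-phenol extraction and DNase digestion, per the labels' protocols. The authors deposited raw counts, whole reads per gene and library. The build sacCer3, the aligner STAR 2.7.11a and the counter featureCounts (Subread 2.0.5) are named, per the submitters' processing notes. Annotation, strand setting and multi-mapping rule were not given in the sources used here.

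Counts were fitted in R 4.3.3 with edgeR 4.0.16, using filterByExpr by genotype, TMM and a robust quasi-likelihood model with genotype and batch. Tests were two-sided and adjusted by Benjamini-Hochberg over 6162 genes. Standard errors were the absolute log2 fold change divided by the square root of F. CPM were not corrected for batch. Alternatives used DESeq2 1.42.0 and limma 3.58.1, whose voom fit took matched libraries as a block (consensus correlation 0.7185). The fit was also run on simulated data with independent libraries and no batch shift. That run cannot test p-values where matched libraries are correlated. Upstream windows and motifs came from the R64 genome, both strands searched.

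Library values were given for members called with a change of 1.5-fold or more and for 4 paralog pairs, with other members by level, change and count, and further genes from fixed lists. Values of HIS1, HIS4, HIS7 and LEU1 by library were added after they were seen. The members and lists were chosen with earlier results of these data known.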

Additional observations from a re-analysis of the deposited data

How the results depend on the processing

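Among changes of single members called as reported or under an alternative, 7 changed sign, all with scaling by total count. Changes near 0 that were not called also changed sign under several alternatives. LYS21 became 0.03 in upf1Δ against wild type, and against nmd4Δ the values in upf1Δ became 0.11 for LYS2, 0.11 for LYS21, 0.01 for TRP2, 0.00 for TRP3, 0.12 for TRP4 and 0.10 for ARO1. The cause was not tested. With that scaling 10 members were higher and 6 lower in upf1Δ against wild type, 5 and 0 in ebs1Δ, 12 and 3 in upf1Δ against nmd4Δ, 5 lower in upf1Δ against ebs1Δ, and 0 higher and 4 lower in nmd4Δ against ebs1Δ. In nmd4Δ against wild type, DESeq2 gave 4 higher, the matched block 0 higher, batch 1 alone 0 higher and 0 lower (1 and 2 at an unadjusted p under 0.05), and batch 2 alone 0 higher (2 unadjusted). In ebs1Δ, DESeq2 gave 2 higher and batch 1 alone 0 and 0 (2 and 1 unadjusted). In nmd4Δ against ebs1Δ, batch 1 alone gave 0 higher (4 unadjusted) and no batch term 1 lower.

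Over 20 same-numbered pairs of libraries of different genotypes the correlation of deviations was -0.41 to 0.51 and 7 exceeded 0.1 (4064 genes). In replicates 1 and 2 it was 0.43 and 0.51 between upf1Δ and ebs1Δ, and 0.45 and 0.32 between wild type and ebs1Δ. In replicate 3 the same 2 comparisons gave -0.07 and -0.41, wild type replicate 3 being in batch 2. It cannot be told from these values whether some libraries were paired, and the main fit has no replicate term. A replicate block gave 6 higher and 15 lower in upf1Δ, 5 and 3 in nmd4Δ and 1 and 1 in ebs1Δ against wild type, 4 and 18 and then 5 and 10 in upf1Δ against nmd4Δ and ebs1Δ, and 4 and 0 in nmd4Δ against ebs1Δ.

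Leaving out each library in turn gave 5 to 6 higher and 13 to 21 lower in upf1Δ against wild type, 1 to 3 and 3 to 4 in nmd4Δ, and 0 to 2 and 1 to 4 in ebs1Δ. It gave 4 to 5 and 15 to 23 in upf1Δ against nmd4Δ, 4 to 5 and 7 to 14 in upf1Δ against ebs1Δ, and 0 to 4 and 0 to 0 in nmd4Δ against ebs1Δ. In ebs1Δ the rise was absent without wild type replicate 1 or 3 or ebs1Δ replicate 2, 2 rose without upf1Δ replicate 1, 2 or 3 or nmd4Δ replicate 1, and 1 fell without wild type replicate 2, nmd4Δ replicate 3 or 6, or ebs1Δ replicate 1 or 3. The 23 came without wild type replicate 2 and without upf1Δ replicate 2, the 7 without upf1Δ replicate 3, the single rise in nmd4Δ without wild type replicate 2, and the 0 of nmd4Δ against ebs1Δ higher without ebs1Δ replicate 3 (1 without nmd4Δ replicate 2). The lowest count of a member in any library was 1636 reads (LYS1).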
